A study of Mus musculus with 4 samples.

Results

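The Foxp genes Foxp1, Foxp2, Foxp3 and Foxp4 encode a subfamily of forkhead transcription factors. They were taken by symbol from a table of read counts for 24548 mouse genes, in which 4 of 4 were found, and 4 of 4 passed the filter on low counts. The counts come from chromatin immunoprecipitation followed by sequencing (ChIP-seq) with an antibody against Foxp1, so the product of one member was the bait and the genes of all members were among the regions read out. The groups were Foxp1 ChIP of basal mammary epithelial cells, input DNA of basal cells (no antibody), Foxp1 ChIP of luminal mammary epithelial cells and input DNA of luminal cells, with 1 library each. Both cell types were taken from mammary glands of wild-type females aged 10 to 12 weeks, of the FVB/N strain by the series text (the sample labels spell it FBV/N), with no treatment. The number of animals pooled and the sorting of the cells are not stated in the sources used here.

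Foxp proteins bind DNA through a forkhead domain near the carboxyl end and pair with themselves and with each other through a leucine zipper, and they act mainly as repressors. Foxp1 is known for roles in B cells, T cells and muscle and in the mammary gland for controlling stem cell dormancy and duct growth. Foxp2 is known for neural circuits of vocal learning, Foxp3 defines regulatory T cells, and Foxp4 acts together with Foxp1 and Foxp2 in the developing lung and gut. In the mammary duct luminal cells face the lumen, and basal cells surround them and contract to expel milk.

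The Foxp1 and Foxp2 genes are both on chromosome 6 and are long, Foxp3 lies on the X chromosome and Foxp4 on chromosome 17. In RefSeq on GRCm38.p6 (equivalent to mm10), Foxp1 (Entrez gene 108655) spans 98925342 to 99522746 (597 kb), Foxp2 (114142) spans 14901349 to 15441977 (541 kb), Foxp3 (20371) spans 7579676 to 7595243 (15.6 kb) and Foxp4 (74123) spans 47867133 to 47924632 (57.5 kb). All are protein-coding. The counts did not follow these lengths: Foxp2 had 117 reads in basal input and Foxp3 had 104. Across autosomal genes the median count summed over both inputs was 293 in the shortest decile and 365 in the longest, so the counts followed gene length only weakly. Which part of a gene was counted, and for Foxp1 at which of its starts, the sources used here do not say.

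The start sites of the members are shown here because Foxp1 was the antibody's target and a forkhead protein recognises short T-rich words. RefSeq promoter windows, 250 bases before to 50 after a start, matched 3 of the 4 members by symbol, with 3 windows for Foxp1, 2 for Foxp3 and 1 for Foxp4. Searched on both strands were 5 words of 7 letters. These were TGTTTAC as the usual forkhead word, then TGTTTAT with another last letter, then TATTTAC with another second letter, then TATTTAT with both of these, and last TATTTGT as a further variant. The core TGTTT, which lies inside TGTTTAC and inside TGTTTAT, was searched in addition. Capitals mark the matches, and each sequence is written 5′ to 3′ on the strand of its gene. The Foxp1 windows lie on the minus strand of chromosome 6 at chr6:99520944-99521243, chr6:99266466-99266765 and chr6:99028249-99028548 (GRCm38.p6) for starts 1, 2 and 3, with starts 2 and 3 lying 254.5 and 492.7 kb from start 1. The Foxp4 window is on the minus strand at chr17:47924583-47924882. The Foxp3 window shown is on the plus strand at chrX:7579426-7579725.
Foxp1 start 1: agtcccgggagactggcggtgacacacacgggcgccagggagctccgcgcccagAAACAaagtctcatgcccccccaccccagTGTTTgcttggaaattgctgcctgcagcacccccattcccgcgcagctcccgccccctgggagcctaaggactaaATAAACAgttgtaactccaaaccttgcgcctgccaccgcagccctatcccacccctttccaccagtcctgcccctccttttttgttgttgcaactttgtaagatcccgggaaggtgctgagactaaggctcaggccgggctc
Foxp1 start 2: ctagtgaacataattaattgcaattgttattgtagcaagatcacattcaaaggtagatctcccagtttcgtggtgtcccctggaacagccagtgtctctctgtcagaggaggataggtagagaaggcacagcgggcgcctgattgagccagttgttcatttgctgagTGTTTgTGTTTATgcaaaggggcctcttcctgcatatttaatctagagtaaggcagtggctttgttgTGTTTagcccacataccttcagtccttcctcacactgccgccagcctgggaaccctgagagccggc
Foxp1 start 3: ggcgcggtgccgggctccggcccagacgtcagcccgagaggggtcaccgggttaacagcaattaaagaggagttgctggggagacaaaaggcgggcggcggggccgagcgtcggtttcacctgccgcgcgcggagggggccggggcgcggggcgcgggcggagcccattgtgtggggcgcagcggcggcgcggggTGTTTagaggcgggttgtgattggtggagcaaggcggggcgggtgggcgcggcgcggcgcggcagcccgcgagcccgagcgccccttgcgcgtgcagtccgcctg
Foxp4 start: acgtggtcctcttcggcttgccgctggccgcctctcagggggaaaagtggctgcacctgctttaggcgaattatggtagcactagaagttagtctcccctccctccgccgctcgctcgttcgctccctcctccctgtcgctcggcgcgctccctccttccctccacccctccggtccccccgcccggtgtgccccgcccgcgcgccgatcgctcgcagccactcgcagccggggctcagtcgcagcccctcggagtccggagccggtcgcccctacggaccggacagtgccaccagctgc
Foxp3 start 1: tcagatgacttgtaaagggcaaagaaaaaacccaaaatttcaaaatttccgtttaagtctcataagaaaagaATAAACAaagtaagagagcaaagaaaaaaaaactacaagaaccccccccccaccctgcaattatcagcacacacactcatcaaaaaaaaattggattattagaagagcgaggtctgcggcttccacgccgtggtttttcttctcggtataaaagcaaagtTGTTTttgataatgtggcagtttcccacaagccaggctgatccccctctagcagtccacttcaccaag

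The word TGTTTAT occurred in the window of Foxp1 start 1, read on the opposite strand at position -92 from the start, and in that of start 2 at -77. It was also in the window of Foxp3 start 1, on the opposite strand at -178. The window of Foxp3 start 2 (chrX:7580233-7580532) held TATTTGT at -187. The window of Foxp1 start 3 held the core TGTTT once, at -55, and none of the 7-letter words, and the Foxp4 window held no match of either kind. Of 32851 promoter windows of this length, 4.6% held TGTTTAT, 17.4% held at least one of the 5 words and 50.5% held the core. The windows differed in base composition: GC content was 60.3%, 48.7% and 75.3% in the Foxp1 windows, 70.3% in the Foxp4 window, and 40.7% and 47.7% in the Foxp3 windows. A match describes these letters and is not a binding site.

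The 4 libraries held 3080114 to 4201459 reads in gene regions, and values are given as CPM, counts divided by the library's TMM-scaled size, with TMM factors of 0.978 to 1.017. A ratio between libraries has a 99% interval from its counts. It counted as higher or lower (a call) if it reached 1.5-fold and the interval left out 1. With 1 library per group, these intervals cover counting error only, treat reads as independent molecules and compare libraries, not conditions. No p-value is given. Without a control antibody, ChIP over input does not separate Foxp1 binding from other differences in recovery. The counts are of DNA and do not measure expression, so the cell type labels could not be checked by expression. Summed over 9 basal marker genes, scaled counts were 713 in basal ChIP and 513 in basal input, and 379 in luminal ChIP and 419 in luminal input. Over 11 luminal marker genes they were 561 and 489 in the basal pair and 758 and 613 in the luminal pair, and no marker of either list was at 0 in any library.

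Foxp1 was enriched in Foxp1 ChIP in both cell types and was the one Foxp gene called in either. It was highest of the 42 tested forkhead genes in basal and in luminal cells. Foxo3, also called higher in both, was close to Foxp1 in luminal cells (log2 0.76 and 0.78), and their difference was not tested. Foxp4 stood above its input in basal cells without reaching the call, and whether its interval left out no difference depended on the setting. Foxp2 and Foxp3 were at or below their inputs in both cell types.

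Foxp1 had 551 reads in basal ChIP and 203 in basal input, or 149 and 64.8 CPM (95% counting intervals 137 to 162 and 56.2 to 74.4). This is a 2.30-fold ratio (1.86 to 2.87). In luminal ChIP it had 315 reads and in luminal input 249, or 100.5 and 58.4 CPM (89.7 to 112 and 51.3 to 66.1), a 1.72-fold ratio (1.38 to 2.15). Both ChIP libraries stood above both inputs, with basal ChIP highest. At a ratio of 1, 239.2 reads would be seen in basal ChIP and 183.0 in luminal ChIP, so that 312 and 132 reads lay above that level. In basal ChIP 8.3% of all 23128 tested genes were called, 4.24% as higher and 4.06% as lower. In luminal ChIP 3.63% were called, 1.5% as higher and 2.13% as lower.

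By its ratio Foxp1 ranked 70th from the top in basal and 200th in luminal cells. Called higher in both were 108 genes, 0.467% of those tested. Only 8 other genes had ratios at least as high as those of Foxp1 in both cell types. Of these 8, named after their values were seen, Anp32b (a histone-binding acidic protein), the noncoding RNA gene Neat1 and Zfp36l1 (an RNA-binding protein of mRNA decay) were called in both, and the other 5 had 36 or fewer reads in basal ChIP. The inputs of Foxp1 were themselves above most genes: its basal input count exceeded that of 94.8% of tested genes and its luminal input count that of 81.5%.

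**Figure D1:**
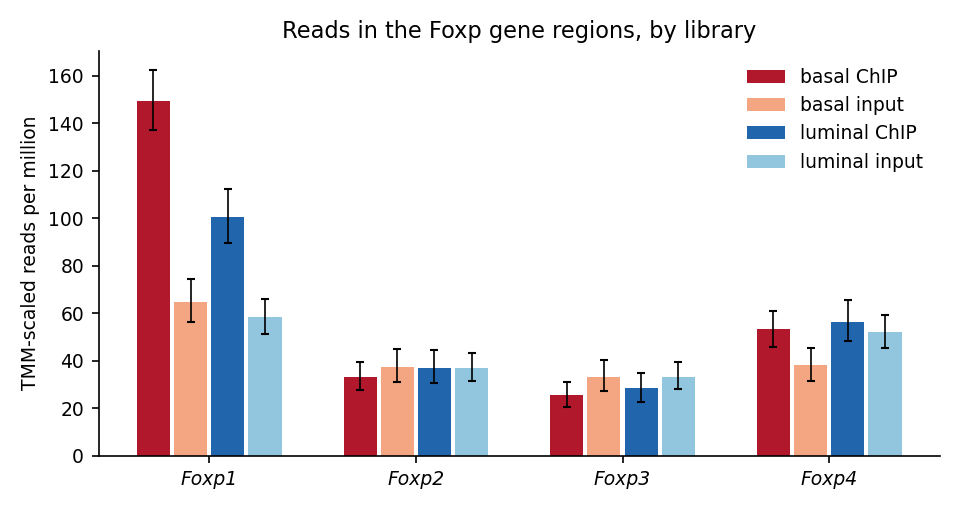
Scaled counts as CPM (y axis) in each Foxp gene region (x axis) for the basal ChIP, basal input, luminal ChIP and luminal input libraries, 1 library per bar, with exact 95% Poisson intervals as error bars. Foxp1 reaches 149 in basal ChIP and 100.5 in luminal ChIP, above its inputs at 64.8 and 58.4, while Foxp2 and Foxp3 stay between 25.5 and 37.4 in every library.

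Foxp4, the partner of Foxp1 and Foxp2 in lung, had 196 reads in basal ChIP and 119 in basal input, or 53.1 and 38.0 CPM. The ratio was 1.40-fold (1.03 to 1.91), an interval above 1 at a size below the 1.5-fold of the call. At its input depth 211 ChIP reads would have been called. In luminal cells it had 177 reads in ChIP and 222 in input, or 56.5 and 52.0 CPM, a 1.08-fold ratio (0.832 to 1.41). The ChIP levels of Foxp4 were thus close in both cell types and its inputs were not: basal input over luminal input was 0.730-fold (0.539 to 0.981), a value lower than that of 96.3% of tested genes. Between the inputs 1.17% of genes passed the call (0.709% with basal higher, 0.463% with basal lower), and no Foxp gene was among them. With both inputs summed as background, the basal ratio of Foxp4 was log2 0.20 (-0.14 to 0.54). With total counts it was log2 0.43 (-0.01 to 0.87). With ratios centred on olfactory receptor genes, a gene family of the nose, it was log2 0.70 and called higher. When the interval was widened by the spread among those receptor genes, it ran from log2 -0.18 to 1.16. The interval thus included no difference with summed inputs, with total counts and when widened.

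Foxp2, the neural member, had 122 reads in basal ChIP and 117 in basal input, or 33.1 and 37.4 CPM, a ratio of 0.885-fold (0.629 to 1.25). In luminal cells it had 116 reads in ChIP and 158 in input, 37.0 CPM in each, a ratio of 0.999-fold (0.722 to 1.38). Its 4 scaled values lay within 33.1 to 37.4 and their intervals overlapped. A call would have needed 207 reads in basal ChIP and 175 in luminal ChIP, counts set by the 1.5-fold size of the call.

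Foxp3, the regulatory T cell factor, had 94 reads in basal ChIP and 104 in basal input, or 25.5 and 33.2 CPM, a ratio of 0.767-fold (0.525 to 1.12). In luminal cells it had 89 reads in ChIP and 142 in input, or 28.4 and 33.3 CPM, a ratio of 0.853-fold (0.594 to 1.21). Both ChIP values lay below both inputs and neither ratio was called; 184 and 157 ChIP reads would have been needed for a call higher. The gene overlaps the noncoding gene Flicr (X chromosome, 7573600 to 7581016) at its start and Ccdc22 at its end, and how reads in shared sequence were counted is not given, so the Foxp3 counts are uncertain. The 7 genes listed as T cell markers summed to 306 and 278 scaled reads in basal ChIP and input and to 252 and 286 in luminal ChIP and input. Of the 6 tested, Ikzf2 was called higher in basal ChIP and none in luminal ChIP, beside 4.24% and 1.5% of all tested genes.

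**Figure D2:**
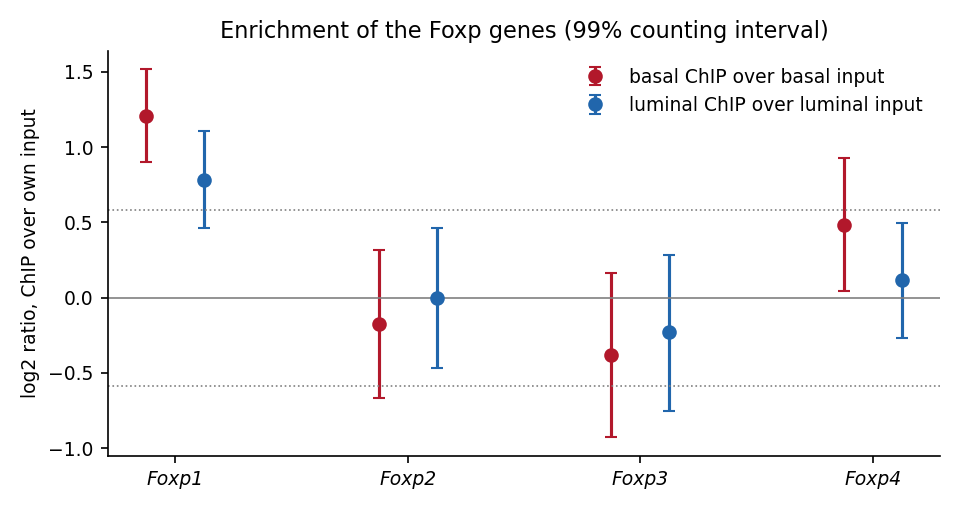
Log2 ratio of Foxp1 ChIP over the input of the same cell type (y axis) for the 4 Foxp genes (x axis), basal and luminal side by side, with 99% counting intervals and dotted lines at 1.5-fold. Foxp1 lies above the upper line in both cell types (1.20 and 0.78), Foxp4 reaches 0.48 in basal cells, and the other values lie between -0.38 and 0.12.

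The order of the ratios was Foxp1, Foxp4, Foxp2, Foxp3 in both cell types. All 6 pairs of members were compared within each cell type, where the scaling cancels. In basal cells Foxp1 exceeded its neighbour Foxp4 by 0.72 on the log2 scale (standard error 0.20, 99% interval 0.19 to 1.25), and Foxp4 exceeded Foxp2, since Foxp2 minus Foxp4 was -0.66 (-1.30 to -0.01). Foxp2 and Foxp3 did not differ beyond counting error (0.21, -0.51 to 0.92). In luminal cells Foxp1 exceeded Foxp4 by 0.66 (standard error 0.19, 0.18 to 1.15), while Foxp2 minus Foxp4 (-0.12, -0.71 to 0.47) and Foxp2 minus Foxp3 (0.23, -0.45 to 0.90) were within counting error. The largest difference was that of Foxp1 and Foxp3, at 1.58 (0.97 to 2.19) in basal and 1.01 (0.42 to 1.60) in luminal cells. When the intervals were widened by the spread among olfactory receptor genes, an alternative added for these pairs after the data were seen, Foxp1 still exceeded Foxp2 and Foxp3 in basal cells and Foxp3 in luminal cells, and no other pair differed. Summed inputs were likewise added for these pairs after the data were seen. With them, Foxp2 and Foxp4 in basal cells (-0.37) and Foxp1 and Foxp4 in luminal cells (0.42) no longer differed beyond counting error.

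The enrichment of basal cells was set over that of luminal cells as a ratio of the 2 ratios. For Foxp1 the log2 difference was 0.42 (standard error 0.17, 99% interval -0.02 to 0.86), which was not called. The ChIP libraries compared directly gave 149 CPM in basal and 100.5 in luminal cells, 1.49-fold (1.24 to 1.79), just under the 1.5-fold of the call, and the inputs 64.8 and 58.4, 1.11-fold (0.866 to 1.42). The difference was 0.36 for Foxp4 (-0.21 to 0.93), -0.18 for Foxp2 (-0.84 to 0.48) and -0.16 for Foxp3 (-0.88 to 0.57). Foxp4 had 53.1 CPM in basal and 56.5 in luminal ChIP, so its difference between cell types turned to -0.088 with the inputs summed. Of all tested genes 7.89% were called in this difference (3.72% higher, 4.16% lower), and 8.03% between the ChIP libraries (4.05% higher, 3.98% lower). No Foxp gene was called in either. Intervals this wide do not show that enrichment was equal in the cell types.

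Among the 42 forkhead genes tested of 44 in the table, the Foxp genes had 1 of 4 called higher in basal cells and 1 of 4 in luminal cells, with median log2 ratios of 0.15 and 0.06. The 38 others had 3 called higher and 3 lower in basal cells (median 0.04) and 2 higher and 1 lower in luminal cells (median 0.09), while the median over all tested genes was -0.01 in basal and -0.0024 in luminal cells. Of all tested genes 4.24% were called higher in basal and 1.5% in luminal cells. Foxp4 ranked 9th in basal and 18th in luminal cells, Foxp2 28th and 25th, and Foxp3 38th and 34th. The gene nearest to Foxp1 in both was Foxo3, a forkhead factor restrained by insulin signalling, with 458 reads in basal ChIP and 199 in basal input (log2 0.97), and 351 in luminal ChIP and 283 in luminal input (0.76). Foxp1 minus Foxo3 was not tested. The other forkhead genes called higher were Foxk1 (0.87) and Foxj1 (0.61) in basal cells and Foxc1 (0.67) in luminal cells. Called lower were Foxb2 (-0.90), Foxs1 (-0.68) and Foxr2 (-0.65) in basal cells and Foxl2 (-1.47, on 9 ChIP and 34 input reads) in luminal cells.

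**Figure D3:**
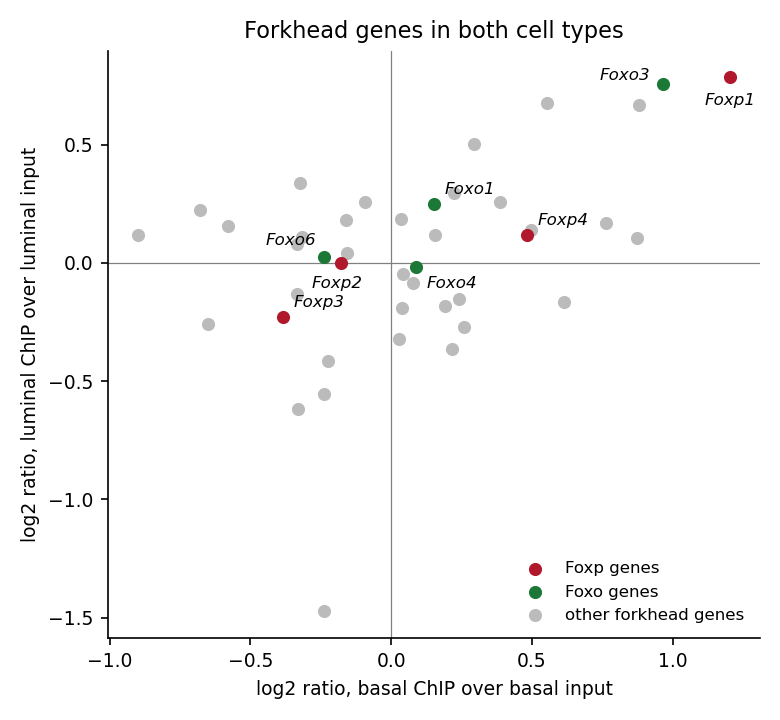
Each point is 1 of the 42 tested forkhead genes, placed by its log2 ratio of basal ChIP over basal input (x axis) and of luminal ChIP over luminal input (y axis), with Foxp genes in red, Foxo genes in green and the others in grey. Foxp1 (1.20 and 0.78) is farthest to the upper right, next to Foxo3 (0.97 and 0.76), and Foxp2 and Foxp3 lie near or below 0 on both axes.

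Of the 3 nearest genes on each side of Foxp1 in RefSeq order among genes in the table, 0 of 6 were called in either cell type. Their log2 ratios were -0.38 to 0.44 in basal and -0.54 to 0.04 in luminal cells. Of all tested genes 8.3% were called in basal cells, 3.63% in luminal cells and 7.89% in the difference between them. A count of 0 of 6 is near these shares. The nearest, Eif4e3, a cap-binding protein gene 99.1 kb away, had 231 reads in basal ChIP and 206 in basal input (-0.07), and 173 in luminal ChIP and 229 in luminal input (0.04). Mitf, the pigment cell regulator, had 158 and 169 reads in the basal pair (-0.33) and 131 and 246 in the luminal pair (-0.46). Frmd4b, more than a megabase away, had 271 and 170 reads in the basal pair and 93 and 184 in the luminal pair, and its difference between cell types, 0.97, was called. Around Foxp4, 0 of 6 neighbours were called. Its nearest, Mdfi, an inhibitor of myogenic factors 32.4 kb away, had 247 reads in basal ChIP and 148 in basal input (0.50, not called), and 171 in luminal ChIP and 206 in luminal input (0.18). Around Foxp2, Tes, a focal adhesion protein gene 1623 kb away, was called higher in basal cells (341 over 177 reads, 0.71). Around Foxp3, Syp, the synaptic vesicle protein synaptophysin, was called lower in basal cells (87 over 113 reads, -0.61). Ccdc22, which overlaps the end of Foxp3, had only 18 reads in basal ChIP and 12 in basal input, and 10 in luminal ChIP and 21 in luminal input.

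**Figure D4:**
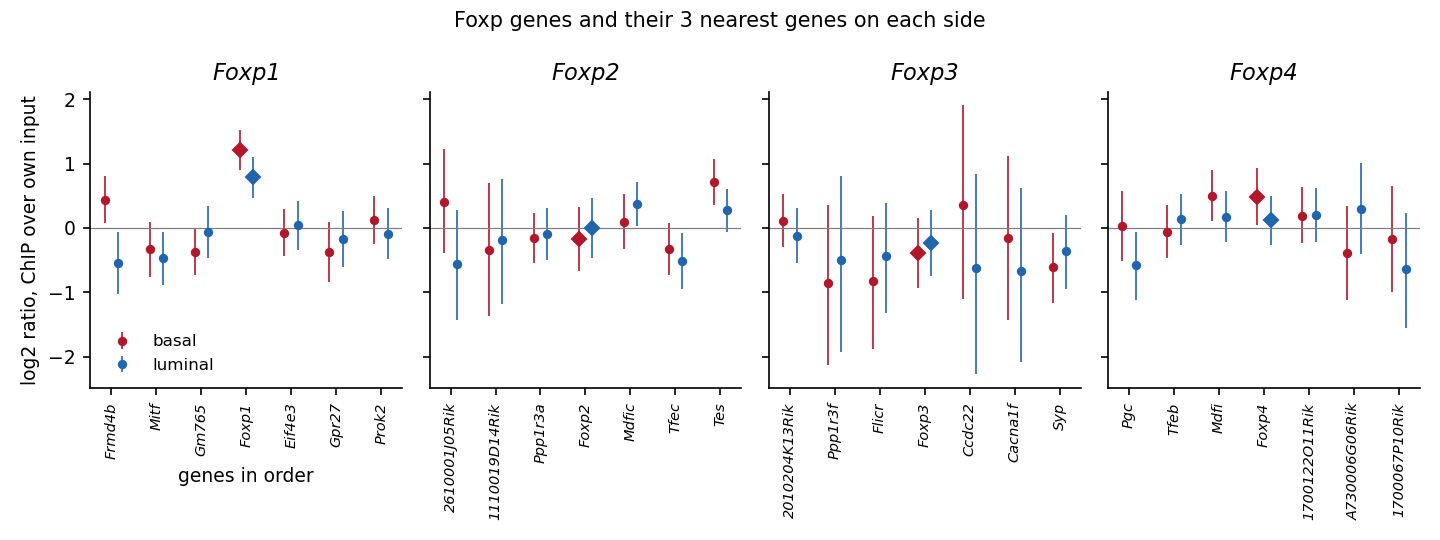
Log2 ratio of ChIP over own input (y axis) with 99% counting intervals for each Foxp gene (diamonds) and the 3 nearest genes on each side in chromosome order (circles), basal in red and luminal in blue. Foxp1 at 1.20 and 0.78 stands above its 6 neighbours, which lie at 0.44 or less, whereas Foxp2, Foxp3 and Foxp4 lie within the range of theirs.

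Across all genes the ratios varied with the base composition of the promoter, and the members differ in it. Of 17432 tested genes with a promoter window, split into 5 bins by GC content, the lowest bin had a median log2 ratio of -0.17 in basal and -0.07 in luminal cells, and the highest bin had 0.17 and 0.09. The share called higher in basal ChIP was 0.918% in bin 1 and 8.07% in bin 5. Foxp3, with a mean GC content of 44.2% over its windows, lay in bin 1, Foxp1 (61.4%) in bin 4 and Foxp4 (70.3%) in bin 5. Bin 4 had medians of 0.09 in basal and 0.05 in luminal cells, with 5.74% and 2.18% of its genes called higher, beside ratios of 1.20 and 0.78 for Foxp1. The basal ratio of Foxp4, 0.48, stood beside a median of 0.17 in its bin, and its luminal ratio, 0.12, beside 0.09. The part of base composition in these ratios was not tested.

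**Figure D5:**
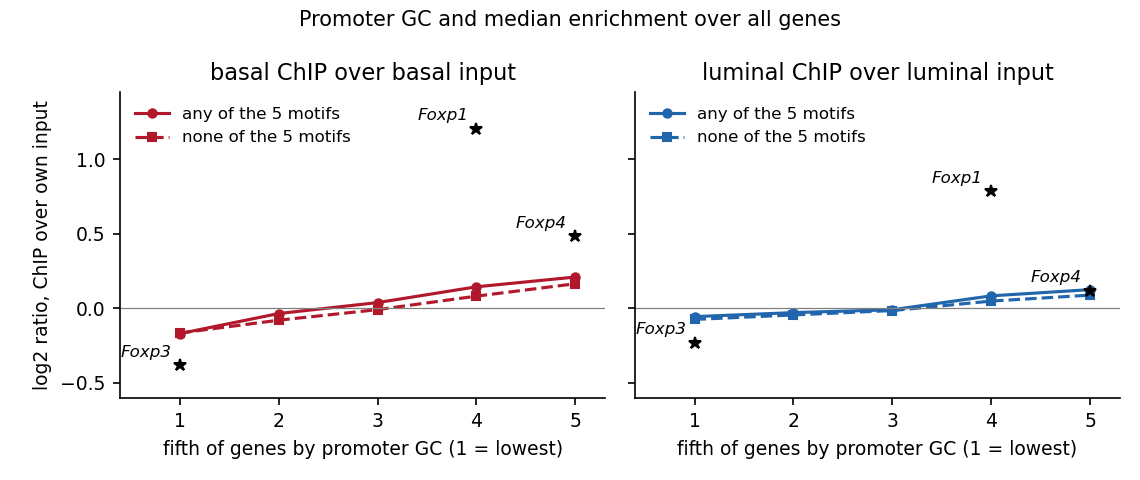
Median log2 ratio of ChIP over own input (y axis) in 5 bins of genes by promoter GC content (x axis), for genes with any of the 5 forkhead words in a window (solid) and with none (dashed), basal on the left and luminal on the right, with Foxp1, Foxp3 and Foxp4 as stars. The medians run from -0.17 to 0.21 in basal cells and from -0.07 to 0.13 in luminal cells, and Foxp1 lies above them in both.

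Genes of known Foxp partners were described next, as a list of 28 corepressors and transcription factors that bind a Foxp protein or its complexes, of which 27 were tested. Like the members, these partners were chosen with earlier results of these data known, so their calls and medians are not independent support. In basal cells 2 were called higher and 2 lower, beside 4.24% and 4.06% of all tested genes, with a median of 0.38 against -0.01 over all genes. The median was not set against genes of like promoter GC content. Ctbp2, of the CtBP corepressors, had 322 reads in basal ChIP and 131 in basal input (2.09-fold, 1.60 to 2.75). Nfatc1, of the NFAT family whose members pair with Foxp3, had 406 and 190 reads (1.81-fold, 1.44 to 2.29). Nkx2-1, the lung and thyroid regulator, was called lower with 83 reads over 134, and Chd4, the helicase of the NuRD complex, with 7 over 22, a call lost with the widened interval. In luminal cells the median was 0.13, and 2 were called higher and none lower, beside 1.5% and 2.13% of all tested genes. These were Ctbp2 again (201 reads over 172, 1.59-fold, 1.21 to 2.09) and Gata3, a regulator of luminal fate (114 over 77, 2.01-fold, 1.37 to 2.99). The lowest and highest members were Chd4 (-1.89) and Hdac3 (1.42, on 22 over 7 reads, not called) in basal cells, and Hdac3 (-1.36, on 4 over 14, not called) and Gata3 (1.01) in luminal cells. With ratios centred on the receptors 12 partners were called higher in basal cells. Under that setting 2993 of all 23128 tested genes were called higher, against 981 without the centring. Between cell types 5 were called higher in basal cells (Nfatc1, Hdac1, Hdac3, Chd3 and Mbd3) and 2 lower (Nkx2-1 and Runx1), beside 3.72% and 4.16% of all tested genes. Of these 7, Nfatc1 was the one still called with the widened interval, and Nfatc1, Hdac3 and Nkx2-1 were still called with both inputs summed.

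Genes known as targets or candidate targets of Foxp factors formed a list of 32, of which 32 were tested. The list was chosen with earlier results of these data known, so calls of its members, Tspan8 among them, are not independent support. In basal cells 5 were called higher and 1 lower, beside 4.24% and 4.06% of all tested genes, and the median was 0.13 against -0.01 over all genes. Cdkn1b, the cell cycle inhibitor p27, had 358 reads in basal ChIP and 163 in basal input (1.86-fold, 1.46 to 2.40). Called with it were Ikzf2, the regulatory T cell factor Helios (0.73), the tetraspanin gene Tspan8 (0.71), Pik3ip1, an inhibitor of phosphoinositide 3-kinase (0.64), and the Notch ligand gene Jag1 (0.59). Of these 5, Cdkn1b alone was still called with both inputs summed. Srpx2, a known FOXP2 target in human cells, was called lower (107 reads over 147, -0.69), also the lowest of the list, a call lost with the receptors as centre, with the widened interval and with the inputs summed. The highest, Nrp1, stood at 0.93 on 18 reads over 8 and was not called. In luminal cells none was called higher and 2 were lower, Sftpc, a surfactant gene repressed by Foxp factors in lung (64 over 155, -0.83), and Cdkn1a, the inhibitor p21 (108 over 222, -0.60). The call of Cdkn1a, like that of Srpx2, was lost with the receptors as centre (-0.53), with the inputs summed (-0.51) and with the widened interval. The shares over all tested genes were 1.5% higher and 2.13% lower. The luminal median was -0.14 against -0.0024 over all genes, and the highest member was Nrp1 (0.44, 7 reads over 7). Between cell types 5 were called higher in basal cells (Cdkn1b, Ikzf2, Pitx3, Tspan8 and Ctla4) and Srpx2 lower. Of these 6, Cdkn1b and Ikzf2 were the ones still called with the widened interval, and Ctla4 was the one still called with both inputs summed (Cdkn1b 0.47 and Ikzf2 0.57, not called). Over all tested genes 3.72% were called higher and 4.16% lower in this difference. Il7r and Csf1r, immune genes under Foxp1 control, were not called in either cell type (0.06 and 0.29 in basal, -0.39 and -0.20 in luminal cells).

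The genes whose 4 values were most like those of each member were found as the smallest Euclidean distance over the centred log2 values of the 4 libraries, among genes with a total count within 1.5 times of the member's, leaving out miRNA genes and genes with only a provisional symbol. For Foxp1 the nearest of 3300 genes were Pim1 (a serine/threonine kinase, distance 0.139), Aebp2 (a Polycomb-associated zinc finger protein, 0.171) and Alkbh5 (an RNA demethylase, 0.216), where the median distance was 0.865. Pim1 had 644 reads in basal ChIP and 208 in basal input, and 339 in luminal ChIP and 278 in luminal input. For Foxp4 they were N4bp1 (0.025), Fbxo22 (0.031) and Pik3c2a (0.034) of 14568 genes, with a median distance of 0.508. For Foxp2 they were Ccdc93, Pdgfd and the olfactory receptor gene Olfr967 (distances of at most 0.016, among 10296 genes with a median of 0.318), and for Foxp3 Kcnk15, Nde1 and Vpreb3 (distances of at most 0.022, among 6451 genes with a median of 0.365). The likeness describes these 4 libraries only.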

How the data were processed

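The deposited values are unnormalized read counts of each gene, in 1 table of the series and in 1 file per sample, which were equal for 24548 of 24548 genes. The submitters' processing notes name featureCounts as a tool and mm10 as the build. For the aligner, versions, annotation, counted part of each gene and duplicate reads, nothing is stated (not given in the sources used here). Per the labels' protocols, single reads of 75 to 85 bp came from a NextSeq instrument.

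Scaling used edgeR 4.0.16 (R 4.3.3), with TMM factors from the 23128 genes with at least 40 reads in all; 1420 genes were not tested. Ratios of scaled counts carry exact Clopper-Pearson 99% intervals. Where a library had 0 reads, 0.5 was added to both. Ratios of ratios carry normal intervals on the log scale from the counts plus 0.5. The remaining computation ran in Python 3.11.15, numpy 2.4.6, pandas 2.3.3 and scipy 1.17.1. The calls were tested on data simulated with counting error only, so that test does not cover the larger spread seen among olfactory receptor genes. The count minimum, the call and the scaling follow an earlier treatment of these data. Depth was 3080114 to 4201459 reads in gene regions.

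With 1 library per group there was no model fit and hence no p-value. The members and lists were chosen with earlier results of these data known. Named genes are the members, the called (at most 5 a direction), lowest and highest genes of each list, the called forkhead genes, neighbours and the 3 most alike genes, plus a few examples chosen after their values were seen. Gene positions and promoter sequences are from RefSeq (GRCm38.p6), in which 24480 gene IDs were found. Protein sequences were not used here. Alternatives were total counts, DESeq2 1.42.0 size factors, centring on 1108 olfactory receptor genes, both inputs summed as background, no filter, a 95% interval, and a 99% interval widened by the receptor spread (variance over counting error 2.28 in the basal and 2.12 in the luminal ratio).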

Additional observations from a re-analysis of the deposited data

How the results depend on the processing

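Of 132 values of the members under the alternatives, 129 kept their call and stayed within the 95% counting interval. This count overstates how far the values were tested. The 95% interval and the widened interval leave each value unchanged by construction, so under them only a call could change. A ratio smaller than the fold size of the call cannot gain a call from either. Leaving out the filter on low counts hardly moved the values. Foxp1 was called higher in all 8 settings in each cell type, at 2.22- to 2.67-fold in basal and 1.64- to 1.80-fold in luminal cells. Centred on the receptors, Foxp4 was called higher in basal ChIP (0.70) and lower in basal over luminal input (-0.67). With the inputs summed its difference between cell types was -0.088. No paired analysis was possible because each group has 1 library, and no library could be left out for the same reason. With summed inputs the comparisons between inputs and between ChIP libraries have no value of their own. The difference between cell types is then the ratio of the ChIP libraries, so it does not test that difference against a pooled input.

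Among pairs of members, with the widened interval Foxp1 minus Foxp4 (0.72 in basal and 0.66 in luminal cells), Foxp2 minus Foxp4 (-0.66) and Foxp3 minus Foxp4 (-0.86) in basal cells, and Foxp1 minus Foxp2 (0.78) in luminal cells were no longer distinct. With summed inputs Foxp2 minus Foxp4 in basal cells (-0.37) and Foxp1 minus Foxp4 in luminal cells (0.42) were not.

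Receptor centring shifted the median log2 ratio over all genes by 0.21 (basal) and 0.07 (luminal). Under it basal ChIP had 2993 higher and 237 lower calls (92.7% of calls higher, against 51.1% as reported and 34.7% with total counts), 576 and 303 in luminal ChIP (65.5% higher, against 41.4% as reported and 30.7% with total counts), 2007 and 415 in the difference between cell types, and 13 and 899 between inputs. The wider interval left 249 lower calls in basal and 127 in luminal ChIP, 207 higher and 129 lower in the difference, and 278 and 173 between ChIP libraries. With a 95% interval 261 and 191 were called between inputs.

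In the partner list, 12 were called higher in basal ChIP centred on the receptors, 1 lower in basal ChIP with the widened interval and 1 lower in luminal ChIP with total counts. In the difference between cell types 2 were higher and 1 lower with summed inputs, 1 and 0 with the widened interval, and 0 lower centred on the receptors. In the target list, 2 were higher in basal ChIP with summed inputs, 0 lower in basal ChIP centred on the receptors or with the widened interval, and 1 lower in luminal ChIP with summed inputs, centred on the receptors or with the widened interval. In the difference 3 were higher with summed inputs (Ctla4, Sftpc and Pdpn), 9 higher and 0 lower centred on the receptors, and 2 higher and 0 lower with the widened interval. That interval makes fewer calls by construction; for the other settings the cause was not tested. Depth limits genes with few reads, such as Hdac3, not called in basal ChIP at log2 1.42 on 22 over 7 reads.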

Other observations

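The share of genes called higher was compared between genes with and without a forkhead word in a promoter window, as a description with no test. Over all genes, 4.11% of the 2992 with any of the 5 words were called higher in basal ChIP, against 4.26% of the 14440 without, and 1.07% against 1.55% in luminal ChIP. Within bins of GC content the order varied. In bins 2, 3 and 4 the shares in basal ChIP were 3.25% with a word and 2.41% without, 6.53% and 3.65%, and 10.9% and 5.33%. In the highest of 5 bins of genes by GC content, 22.3% of the 130 genes with any of the 5 words were called higher in basal ChIP, against 7.50% of the 3241 without, and 4.62% against 2.78% in luminal ChIP. In the lowest bin the shares were 0.781% of 1409 genes and 1.01% of 2185 in basal ChIP, and 0.426% and 0.549% in luminal ChIP. Medians differed little: 0.21 and 0.16 in basal cells in the highest bin. Over all bins, the 798 genes with TGTTTAT, which include Foxp1 and Foxp3, had a median log2 ratio of -0.09 in basal cells, and the 16634 without it -0.01. Genes with more start sites have more windows in which a word can occur, and this was not separated.

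The share of Foxp1 in the reads of the 4 Foxp genes together was 57.2% of 963 reads in basal ChIP and 37.4% of 543 in basal input, and 45.2% of 697 in luminal ChIP and 32.3% of 771 in luminal input.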
